A study of Mus musculus with 2 samples.

Results

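Ribosomal protein genes encode the proteins that, with ribosomal RNA, build the large and small subunits of the cytosolic ribosome, which translates messenger RNA. Blood stem cells translate slowly and their progeny faster, and loss of 1 copy of several of these genes is known to harm red cell formation. The genes lie at separate places in the genome, and the transcription of most is coordinated. Many of their messenger RNAs start with a pyrimidine tract (a run of C and T) through which mTORC1 signalling adjusts translation. A few of the genes have paralogues, near copies elsewhere in the genome whose product can take the same place in the ribosome.

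The genes were taken by symbol: those starting with Rpl or Rps and a digit, plus Rpsa, Rplp0, Rplp1 and Rplp2, without Rps6k kinase genes and pseudogene symbols. Of 32285 genes in the count tables, 86 matched, and 83 with a mean of at least 10 CPM (the UMIs of a gene scaled by the total of its pool) were kept, 49 of the large and 34 of the small subunit. The 3 left out were Rpl3l, Rpl39l and Rpl10l, copies of Rpl3, Rpl39 and Rpl10, with means of 0.43, 0.40 and 0 CPM. A list of 77 core cytosolic ribosomal proteins was covered in full. The other 6 members were the paralogues Rpl22l1, Rpl36al and Rps27l, the related gene Rpl7l1, Rps19bp1, which encodes a protein that binds Rps19, and Rps27rt, a near copy of Rps27 with which it may share reads.

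The cells were sorted as LSK, that is without lineage markers, with Sca-1 and with high Kit, the stem and early progenitor fraction of mouse bone marrow. Donors were young mice, either wild type (WT) or described as IκB–, which the deposited cell table calls IkBKO. IκB proteins hold the transcription factor NF-κB inactive. Neither the altered IκB genes nor the number of mice per sample is named in the labels, so p-values reflect only how these samples spread, which may be technical. In each of 2 replicates, 30000 cells per genotype were tagged with hashing antibodies and run together in 1 droplet library, which gave 4 pools. The question was how altered IκB changes gene expression in these cells.

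Replicate 1 held 3721 WT and 3962 IkBKO cells that passed the deposited quality call, and replicate 2 held 4963 and 5383. The pools held 42165571 to 62834572 UMIs (distinct RNA molecules), with medians of 6983 to 13709 per cell, and IkBKO cells were deeper than WT cells in both libraries. The libraries shared 39 cell barcodes, 0.508% and 0.377% of their cells. Of the sort's genes, Kit was at 118 to 272 and Ly6a, which encodes Sca-1, at 52.4 to 117 CPM. Of the IκB genes, Nfkbie had 9.11 and 12.1 CPM in the WT pools against 2.04 and 1.97 in the IkBKO pools, Nfkbib at 19.2 and 16.1 against 6.64 and 7.93, and Nfkbia at 47.7 and 76.0 against 42.6 and 59.7. A 3′ tag outside an altered stretch of a gene would not show the alteration. WT pools held more RNA of mature neutrophils, with 1344 and 1160 summed CPM over 6 marker genes against 167 and 201 in IkBKO. All 6 were higher in both WT pools than in both IkBKO pools and none was at 0.

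Cells were also pooled by 4 gate genes: Mecom, a stem cell transcription factor (at least 1 UMI), Dntt, an enzyme of early lymphoid cells (at least 3), Mpo, a granule enzyme of early myeloid cells (at least 20), and Pf4, a platelet chemokine of megakaryocyte progenitors (at least 3). Mpo-gated cells were 9.11% and 0.806% of the WT pools and 37.2% and 9.47% of the IkBKO pools, and Dntt-gated cells were 20.1% and 19.4% against 6.66% and 9.79%. The Mpo-gated WT pool of replicate 2 held only 40 cells, with 9003 summed CPM of mature neutrophil markers against 259 to 815 in the other Mpo-gated pools. A gate on UMIs picks deeper cells: Mpo-gated pools had medians of 19454.5 to 22883 UMIs per cell.

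Ribosomal protein genes made up between 34.8% and 37.2% of all UMIs. In replicate 1 their share was 37.2% for WT against 36.1% for IkBKO, and in replicate 2 it was 34.8% against 35.1%. The genotype difference thus had opposite signs in the libraries. It was smaller than the difference between the libraries within WT. In replicate 1 it was larger than the difference between the libraries within IkBKO (36.1% against 35.1%). Among cells in none of the gates the shares were 37.6% in both genotypes of replicate 1 and 35.2% and 35.4% in replicate 2. With 2 pools per genotype an exact permutation test cannot fall below a two-sided p of 0.333, so no test was made of sums over the genes.

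Dntt-gated cells had the highest share of the 4 gates in all 4 pools, at 38.5% and 35.2% in WT and 37.5% and 36.3% in IkBKO. Mpo-gated cells had the lowest share in 3 of the 4 pools, at 35.8% and 32.2% in WT and 35.2% in IkBKO replicate 1. In IkBKO replicate 2 they were at 34.6%, above Mecom-positive cells at 34.4% and Pf4-gated cells at 34.2%. The 32.2% comes from the pool of 40 cells rich in neutrophil RNA, whose part in the value was not tested.

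Single cells spread more widely than pools. In WT cells of replicate 1 the share had a median of 38.1%, with 5% of cells under 29.7% and 5% over 44.9%, and in IkBKO cells of that library the median was 36.8%, with the same limits at 29.8% and 43.9%. In replicate 2 the medians were 35.8% and 35.9%. Cells with more UMIs had somewhat lower shares: across the cells of a pool, Pearson's r of the share with log2 UMIs was -0.06 to -0.25 (4963 to 5383 cells in replicate 2, 3721 and 3962 in replicate 1), a description in which both quantities share the cell's total. At 3000 UMIs per cell the medians were 38.1%, 36.8%, 35.7% and 35.8%, close to the unthinned ones.

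**Figure D1:**
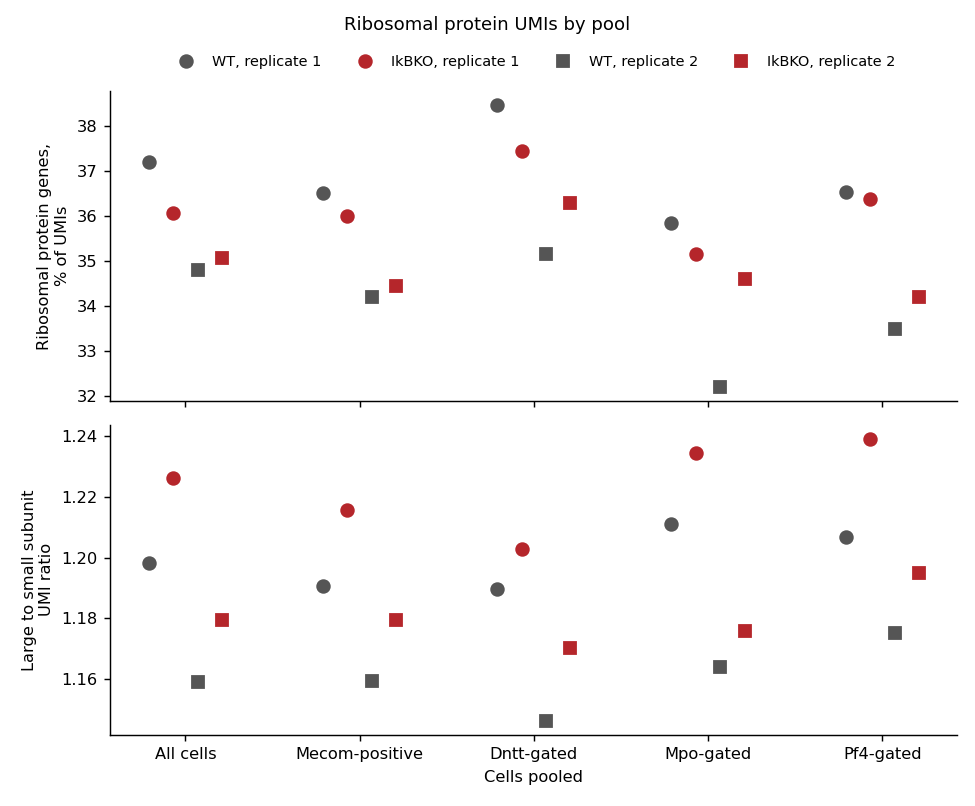
Share of ribosomal protein genes among all UMIs (top, percent) and ratio of large to small subunit UMIs (bottom) in each of the 4 pools, for all cells and for the 4 gates; circles are replicate 1, squares replicate 2, grey WT and red IkBKO, and neither axis starts at 0. The share is highest in Dntt-gated cells in every pool, and the ratio is higher in IkBKO than in WT within each library.

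The ratio of the summed UMIs of the subunits moved in 1 direction in both libraries. In replicate 1 the ratio of large to small subunit UMIs was 1.198 for WT against 1.226 for IkBKO, and in replicate 2 it was 1.159 against 1.179. It was higher in IkBKO within both libraries in all cells and in each of the 4 gates, sets that share cells. The libraries differed more than the genotypes did, so the 4 values overlap between genotypes. In cells of no gate the ratio was 1.201 against 1.217 and 1.163 against 1.179. With the 77 core genes only, it was 1.189 against 1.219 and 1.150 against 1.170. The shares behind the ratio moved differently. In replicate 1 the large subunit made up 20.3% of UMIs (WT) against 19.9% (IkBKO), and the small 16.9% against 16.2%. In replicate 2 these were 18.7% against 19.0%, and 16.12% against 16.10%. Abundant genes weigh most in such sums, and the median log2 fold changes of large and small subunit genes were alike (0.08 and 0.07, below).

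The libraries differed gene by gene, and the coding length of the gene went with it. The 20 members with the shortest coding sequence (75 to 351 bases) were lower in replicate 2 by a median log2 CPM ratio of -0.49 in WT and -0.43 in IkBKO, and 18 of the 20 were lower in each genotype. The 43 of middle length had medians of 0.05 and 0.10, and the 20 longest (624 to 1257 bases) 0.02 and 0.09. Rps29, a short zinc finger protein of the small subunit and the most abundant member, was at 12530 and 11682 CPM in replicate 1 and 7704 and 7637 in replicate 2. Across the 83 genes, which are not independent, r of the ratio with log2 coding length was 0.61 in WT and 0.59 in IkBKO. The genotype ratio within a library showed no such relation (r = -0.02 in both), and the genotype fits below keep the library as a block unless said otherwise. A cause of the library difference was not tested.

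**Figure D2:**
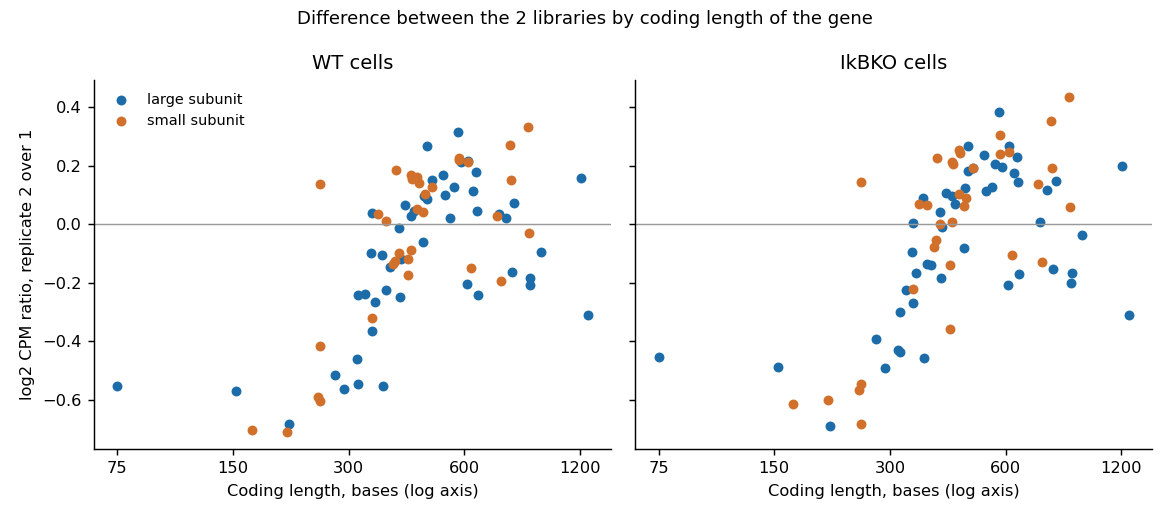
log2 ratio of CPM in replicate 2 over replicate 1 (vertical axis) against coding length in bases (log axis) for the 83 genes, in WT (left) and IkBKO cells (right); blue points are large and orange points small subunit genes. Genes with short coding sequences lie mostly below 0, with a median of -0.49 in WT over the 20 shortest.

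Between genotypes, over all LSK cells, 16 of the 83 genes rose in IkBKO and 1 fell, where 7.13% of all 14742 genes tested rose and 6.19% fell (edgeR quasi-likelihood test with the library as a block, adjusted p of at most 0.05). The changes were small, and the largest, in Rps27l, was 1.5-fold. The median log2 fold change was 0.08 over the 83 genes and -0.01 over all genes tested. Over the same cells all 6 myeloid markers rose, as did 4 of 6 monocyte and dendritic and 4 of 6 mast and basophil markers. Of the stem cell markers 5 of 6 fell, as did 5 of 6 lymphoid markers. None in these lists was called the other way, and their part in the calls on the ribosomal protein genes was not tested. By subunit, 9 of 49 large subunit genes rose and 1 fell (median 0.08), and 7 of 34 small subunit genes rose (median 0.07). Among the core genes, 14 of 77 rose and 1 fell.

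How the pools are scaled sets where 0 lies. TMM scaling, used here, matches the bulk of genes between pools, and scaling by library totals alone moved the median of all genes from -0.01 to -0.10 and that of the ribosomal protein genes from 0.08 to -0.02. The calls were then 9 higher and 5 lower, and the share of all genes called with that scaling is not given. The distance between both medians was 0.08 either way, since a change of scaling moves all genes of a fit by nearly the same amount. That distance is therefore no check on the result. By CPM, 27 of the 83 genes were higher in IkBKO in both libraries, 38 were lower in both and 18 differed between them. The same count over all genes is not given. By library totals the median of all genes was itself negative (-0.10), below that of the members (-0.02). These counts are therefore no result about the family.

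**Figure D3:**
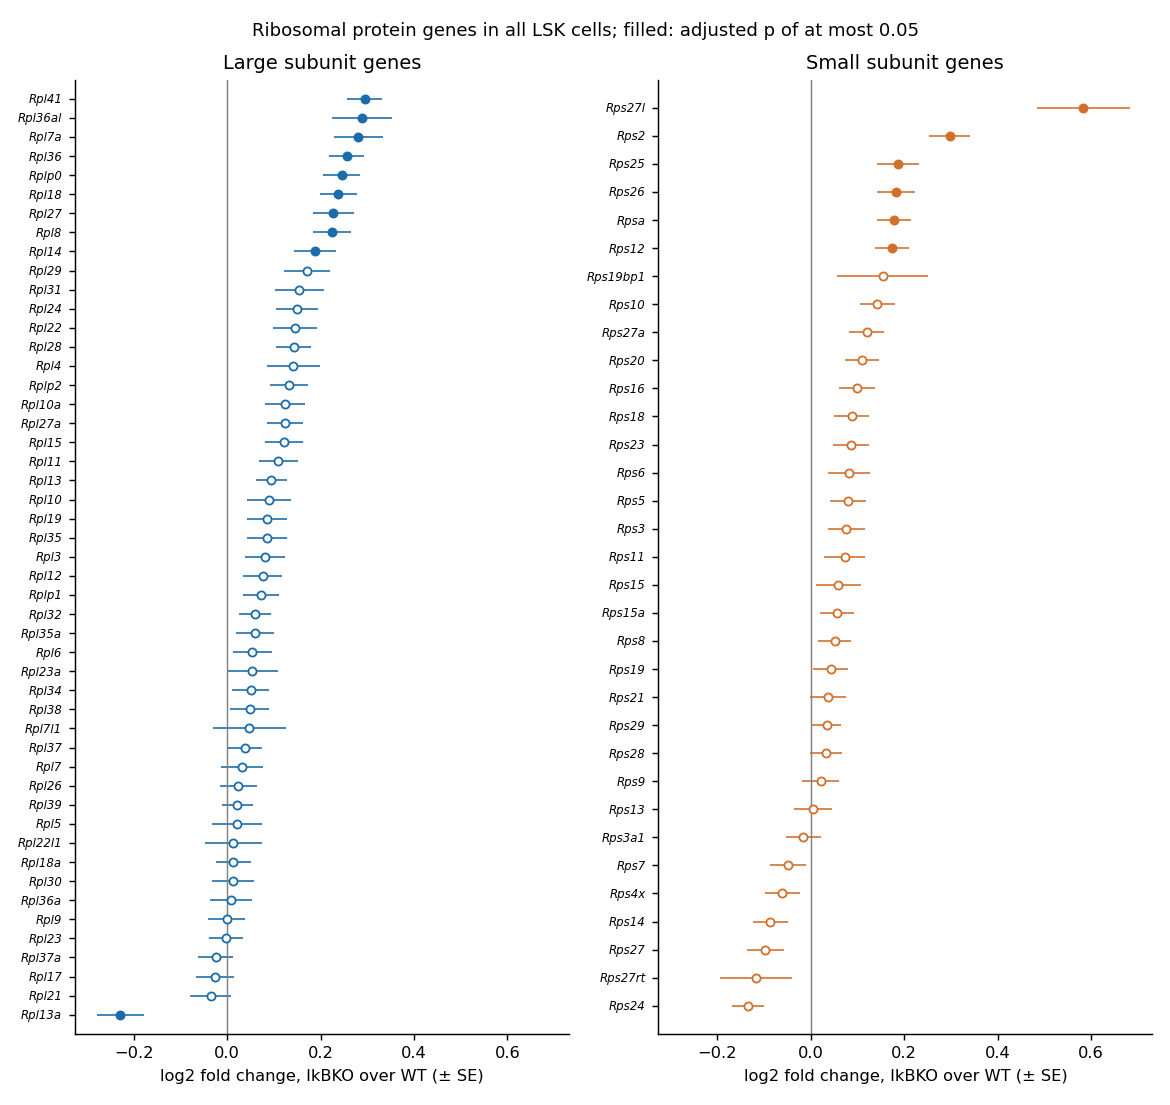
log2 fold change of IkBKO over WT with its standard error for the ribosomal protein genes in all LSK cells (those not reported here are not drawn), large subunit on the left and small subunit on the right, in order of the value; filled points passed an adjusted p of 0.05. Rps27l has the highest value, 0.58, and Rpl13a the lowest, -0.23, and most others lie between 0 and 0.2.

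Rps27l, a paralogue of the small subunit protein Rps27 and a known p53 target gene, stood at 549 CPM (WT) against 848 (IkBKO) in replicate 1 and at 411 against 528 in replicate 2. It was higher in IkBKO within each library, although the lower IkBKO pool lay below the higher WT pool. The log2 fold change was 0.58 ± 0.10 (SE, adjusted p = 0.0227). It was called in Dntt-gated cells, at 0.54 ± 0.10, and in Mecom-positive cells, at 0.41 ± 0.07. In Mpo-gated and Pf4-gated cells the values were 0.35 ± 0.13 and 0.33 ± 0.09, not called. In cells of no gate it was 0.26 ± 0.06 (adjusted p = 0.0314). The gene was higher in Mpo-gated than in Mecom-positive cells (below), and Mpo-gated cells were more frequent in IkBKO. Their part in the value over all cells was not tested.

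Rpl13a, a large subunit protein also known from a complex that silences translation in interferon-treated myeloid cells, was the 1 gene called lower. Replicate 1 had 2732 CPM (WT) against 2191 (IkBKO), and replicate 2 had 2369 against 1896. Both IkBKO pools lay below both WT pools. Its log2 fold change was -0.23 ± 0.05 (adjusted p = 0.0378). In Mecom-positive cells it was -0.33 ± 0.03 and in Pf4-gated cells -0.26 ± 0.07, both called, and in Dntt-gated and Mpo-gated cells -0.23 ± 0.10 and -0.23 ± 0.09, not called. In cells of no gate it was -0.24 ± 0.04. DESeq2 did not call it over all cells (adjusted p = 0.16).

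Because these genes led in either direction, the starts of Rps27l and Rpl13a are shown with those of Rps27, Rpl36a and Rpl36al, the other pairs described below. Each window runs from 30 bases before to 20 bases after the annotated start, on the gene's strand, from RefSeq on GRCm38.p6, and capitals mark runs of at least 6 pyrimidines that begin with C. The windows lie at chr9:66946056-66946105 (plus strand) for Rps27l, chr3:90213629-90213678 (minus) for Rps27, chr7:45128726-45128775 (minus) for Rpl13a, chrX:134585624-134585673 (plus) for Rpl36a and chr12:69184048-69184097 (minus) for Rpl36al.
Rps27l: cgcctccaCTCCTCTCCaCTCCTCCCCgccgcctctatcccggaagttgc
Rps27: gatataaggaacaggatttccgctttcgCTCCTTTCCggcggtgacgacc
Rpl13a: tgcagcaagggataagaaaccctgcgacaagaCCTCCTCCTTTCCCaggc
Rpl36a: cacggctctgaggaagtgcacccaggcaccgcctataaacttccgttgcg
Rpl36al: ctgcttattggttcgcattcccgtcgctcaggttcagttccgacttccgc
Rps27l, Rps27 and Rpl13a had such a run within 20 bases of the start, as had 29.4% of the 27025 promoters of the table. The run of Rps27 spanned the annotated start, that of Rpl13a lay just after it, and both runs of Rps27l ended before it. Rps27l also held CCGGAAG, the core that ETS factors bind (9.12% of promoters on either strand, in 300 bases), and Rpl36a held TATAAA (14.2%). In the windows shown both of these motifs lay after the annotated start. A κB consensus, held by 4.35%, was in none of the 5. Only 63 of the 83 genes (75.9%) were in the table, so a check of motifs over the whole group is void.

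Among the other large subunit genes that rose, Rpl41 encodes the shortest protein of the ribosome. Replicate 1 had 5927 CPM (WT) against 6598 (IkBKO) and replicate 2 had 4043 against 4813, with a log2 fold change of 0.29 ± 0.04 (adjusted p = 0.00983). The pools overlap between genotypes because of the library difference, and within each library IkBKO was higher. Rpl36 was at 6055 and 6710 CPM in replicate 1 and 4397 and 4984 in replicate 2. Its log2 fold change was 0.26 ± 0.04, and it was the gene called higher in Pf4-gated cells, at 0.25 ± 0.06, and had the second highest value in Mecom-positive cells, at 0.24 ± 0.02. Rplp0, the base of the stalk that recruits translation factors, was at 4529 and 4937 CPM in replicate 1 and 4234 and 4807 in replicate 2, with no overlap between genotypes (0.24 ± 0.04). Rpl7a, Rpl18, Rpl27, Rpl8 and Rpl14 rose by 0.19 to 0.28.

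Among the small subunit genes, Rps2, which lines the entry channel of the messenger RNA, was at 2633 and 2929 CPM in replicate 1 and 3311 and 3962 in replicate 2 (0.30 ± 0.04, adjusted p = 0.0146). Rps25, Rps26, Rpsa and Rps12 rose by 0.17 to 0.19. Mutations of human RPS26, like those of RPS19 and RPS24, are known from Diamond-Blackfan anaemia, a failure of red cell formation. Rps19 was at 5820 and 5444 CPM in replicate 1 and 5471 and 5467 in replicate 2, and did not pass (0.04 ± 0.04). Rps24, the second most abundant gene, was at 8860 and 7472 CPM in replicate 1 and 10071 and 8734 in replicate 2. Its log2 fold change was -0.13 ± 0.03 over all cells, short of the threshold (adjusted p = 0.0516), and -0.09 ± 0.02 in Mecom-positive cells, where it was called lower. Of the 17 calls over all cells, DESeq2 made 8, all higher, among them Rps27l, Rpl41, Rps2, Rpl36al, Rpl7a, Rpl36 and Rplp0.

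The calls rested on the library block: without it no member was called over all cells, in either direction. With 1 pool left out the block cannot be kept, and none of the 4 such fits called a member. Without the IkBKO pool of replicate 1, the values of Rpl41, Rpl36, Rpl14 and Rps26 turned negative. Without cells that carried mature or other-lineage markers 17 members were higher and 2 lower. Cells in none of the gates gave 10 higher and 1 lower, and all 11 were among the 17 (a set chosen after seeing the data). The share of all genes called is not given for either cell set, so these counts have no background beside them.

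In Mecom-positive cells, whose gate gene is a stem cell factor, 20 genes rose and 2 fell in IkBKO, where 6.2% of genes tested rose and 4.37% fell. The median was 0.04 over the 83 genes and -0.003 over all genes. Of these 22 genes, 15 were also called over all cells, each in the same direction, and both comparisons share these cells. Rps27l was at 464 and 648 CPM in replicate 1 and 380 and 456 in replicate 2, Rpl13a at 2677 and 2103 and at 2340 and 1793. Rpl13a pools did not overlap between genotypes. Genes called here and not over all cells were Rpl29, Rpl24, Rpl10a, Rpl15, Rps10 and Rpl28, at 0.09 to 0.13, and Rps24. Marker genes of other states moved in the same cells. Of 6 myeloid markers 4 were higher in IkBKO and none lower, and of 6 megakaryocyte markers 4 were higher and 1 lower. Of 6 stem cell markers 4 were lower and none higher, and the same held for 6 lymphoid markers. Summed myeloid markers were at 1466 and 478 CPM in WT against 3597 and 1566 in IkBKO, and no myeloid marker was at 0. Their part in the calls was not tested. In Mecom-positive cells outside the other gates the calls were 8 higher and 1 lower, library totals gave 11 and 5, DESeq2 4 and 1, and without the block no member was called. The share of all genes called under these alternatives is not given.

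The other gates gave few calls. In Dntt-gated cells only Rps27l of the 83 genes was called, against 6.81% of genes called higher and 5.95% lower, and library totals added Rpl13a as lower. Library totals called 3 higher and 1 lower in Pf4-gated cells, and the share of all genes so called is not given. In the main fit of those cells Rpl36 rose and Rpl13a fell, where 0.73% of genes were called in each direction. DESeq2 called neither (Rpl36 0.26, Rpl13a -0.25, adjusted p = 1.00 for both), nor any other member there. In Mpo-gated cells no ribosomal protein gene was called by edgeR, 3 had an unadjusted p under 0.05, and DESeq2 called none with 1 such p. There 0.164% of genes were called higher and 0.138% lower. Whether the genotype difference itself differed between gates was tested in 1 fit over all gates. No member passed, by edgeR or under any alternative run, where 0.083% of genes did. Only Rps27l was under 0.05 before adjustment (adjusted p = 0.97 by edgeR). A gene called in 1 gate and not in another is thus not shown to differ between them.

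Between gates the fit covers 16 pools, against 4 between genotypes, so counts of calls are not comparable between both kinds of fit. Relative to Mecom-positive cells of the same pools, 76 of the 83 genes were higher in Dntt-gated cells and none was lower, with 80 at an unadjusted p under 0.05 (DESeq2: 78 and 0). Over all 12046 genes tested, 18.6% were higher and 16.8% lower. In Mpo-gated cells 70 were higher and 4 lower, against 29.4% and 36.2%, and in Pf4-gated cells 47 and 1, against 15.2% and 16.7%. The medians were 0.24, 0.24 and 0.09 over the ribosomal protein genes, and 0.01, -0.08 and -0.04 over all genes. Large and small subunit genes had like medians in each contrast: 0.24 and 0.23, 0.24 and 0.23, and 0.09 and 0.08. The 3 contrasts share the Mecom-positive pools.

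These counts rest on the scaling. By library totals the calls were 42 higher and 1 lower for Dntt, 24 and 33 for Mpo and 21 and 7 for Pf4, and the medians of all genes moved to -0.15, -0.33 and -0.12. A change of scaling moves all genes of a fit nearly alike. Relative to the medians of all genes the ribosomal protein genes thus had to stay about 0.23, 0.32 and 0.13 higher, as under TMM. With DESeq2, which scaled and filtered the genes differently, they were 0.19 and 0.24 above the median of all genes for Dntt and Mpo but not for Pf4, where their median of 0.11 lay below the 0.13 of all genes. In Mpo-gated cells the direction for the family thus depends on the reference: most members were above the typical gene, while their share of all UMIs was lower than in Mecom-positive cells in 3 of 4 pools. Cells thinned to 3000 UMIs gave 56 higher for Dntt, 46 higher and 6 lower for Mpo, and 15 higher for Pf4. The share of all genes called by library totals, by DESeq2 or after thinning is not given. Those counts thus have no background beside them.

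**Figure D4:**
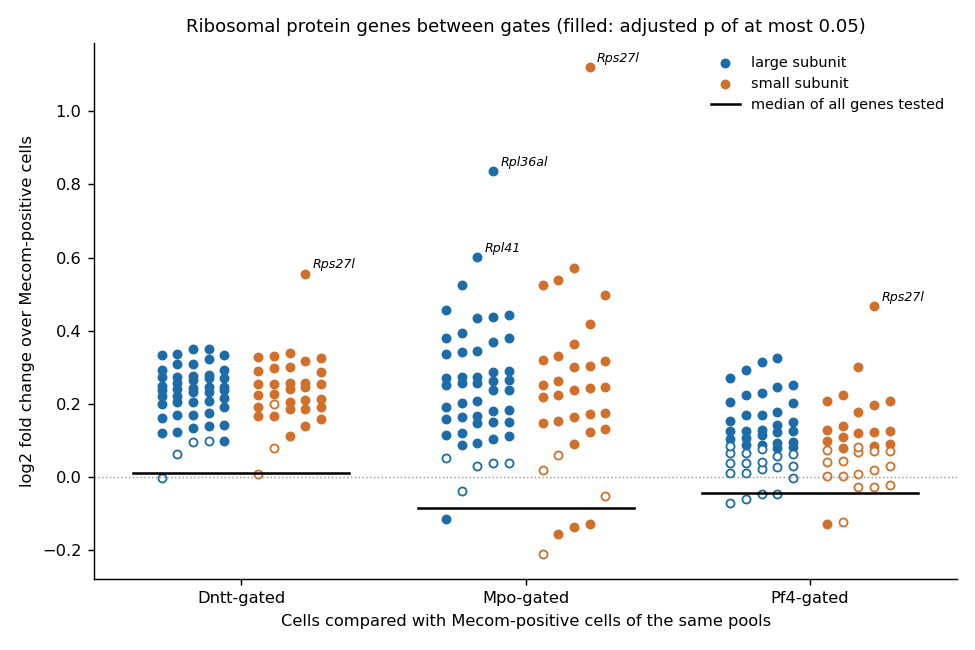
log2 fold change of each ribosomal protein gene in Dntt-, Mpo- and Pf4-gated cells over Mecom-positive cells of the same pools; blue points are large and orange points small subunit genes, filled where the adjusted p was at most 0.05, and the black line is the median of all genes tested. Rps27l is the highest point in each contrast, at 0.56, 1.12 and 0.47, and Rpl36al and Rpl41 follow in Mpo-gated cells.

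Rps27l and Rpl36al stood highest in the Dntt and Mpo contrasts. For Rps27l the log2 differences were 0.56 ± 0.07 in Dntt-gated, 1.12 ± 0.07 in Mpo-gated and 0.47 ± 0.07 in Pf4-gated cells. Mpo-gated cells had 767 and 624 CPM of it (WT) against 1043 and 729 (IkBKO), above all 4 Mecom-positive pools except that the WT pool of replicate 2 lay below the 648 of IkBKO replicate 1. Rpl36al differed by 0.35 ± 0.05, 0.84 ± 0.05 and 0.27 ± 0.05, and in Mpo-gated cells was at 1283, 1222, 1371 and 1146 CPM (WT 1 and 2, IkBKO 1 and 2) against 805 to 983 in Mecom-positive cells. Those ranges did not overlap. Rpl41 and Rps2 followed in Mpo-gated cells, at 0.60 ± 0.04 and 0.57 ± 0.04. All 4 genes were also called higher in Mpo-gated cells by library totals.

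The genes called lower in Mpo-gated cells were Rps27, Rps14, Rps24 and Rpl21, by -0.15 ± 0.04, -0.14 ± 0.04, -0.13 ± 0.03 and -0.11 ± 0.04. RPS14 is known as the gene whose loss drives the anaemia of the 5q- syndrome. Mpo-gated cells had 4551 and 2587 CPM of Rps27 (WT) and 4161 and 2798 (IkBKO), against 5592 and 3644, and 5230 and 3311, in Mecom-positive cells, lower in each of the 4 pools. Rpl21, by contrast, was higher in Pf4-gated cells (0.33 ± 0.04). The 1 gene called lower in Pf4-gated cells was Rps9 (-0.13 ± 0.03). In Dntt-gated cells the lowest values were those of Rpl7l1 (-0.002 ± 0.07), Rps27rt (0.01 ± 0.09), Rpl21 (0.06 ± 0.04) and Rps14 (0.08 ± 0.04), none of them called.

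Paralogues were compared as a share of the UMIs of both genes of a pair, with exact binomial 95% intervals that cover counting error only, since cells of a pool are not independent. Of Rps27 and Rps27l together, Rps27l made up 8.86% (8.75 to 8.97) for WT against 14.9% (14.7 to 15.0) for IkBKO in replicate 1, and 9.96% (9.82 to 10.1) against 13.7% (13.5 to 13.8) in replicate 2. Both IkBKO pools lay above both WT pools. The same held in Mecom-positive cells, at 7.66% and 9.44% against 11.0% and 12.1%, and in the Dntt-gated and Pf4-gated cells. In Mpo-gated cells the shares were 14.4% and 19.4% in WT and 20.04% and 20.7% in IkBKO, and the interval of the 40-cell WT pool (17.99 to 20.9) reached both IkBKO values. The pair's parent, Rps27, did not pass over all cells (-0.10 ± 0.04, adjusted p = 0.15) and was called lower by library totals, at -0.19. The genes have coding sequences of equal length, 252 bases, and lie at chr3:90212522-90213651 (Rps27) and chr9:66946086-66949516 (Rps27l).

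Rpl36al made up 23.1% and 26.99% of Rpl36a and Rpl36al in WT and 27.8% and 29.8% in IkBKO. Over all cells the IkBKO pools lay above the WT pools. With cells thinned to equal depth the pools overlapped, at 22.0% and 26.2% in WT against 25.7% and 28.4% in IkBKO. As a mean over cells they overlapped too, at 22.4% and 26.5% against 26.1% and 28.8%. Within each library IkBKO was higher either way. In Mecom-positive cells the shares were 21.6% and 25.8% against 23.8% and 27.4%, which overlap, and the libraries differed more than the genotypes. In Mpo-gated cells they were 28.2% and 37.4% in WT and 31.3% and 33.5% in IkBKO, so the genotype difference had opposite signs in the libraries. Rpl36al over all cells was at 1023 and 1197 CPM in replicate 1 and 864 and 972 in replicate 2 (0.29 ± 0.06, adjusted p = 0.0399). Within the gates it was not called, with values from 0.02 ± 0.11 in Mpo-gated to 0.20 ± 0.10 in Dntt-gated cells. It was higher in Mpo-gated than in Mecom-positive cells, and Mpo-gated cells were more frequent in IkBKO. Their part in the value over all cells was not tested. Rpl36a, at 3413 and 3104 CPM in replicate 1 and 2338 and 2291 in replicate 2, did not pass. Rpl36a lies at chrX:134585654-134588062 and Rpl36al at chr12:69182731-69184083, and both have 318 coding bases.

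Rpl22l1 made up 31.3% and 31.9% of Rpl22 and Rpl22l1 in WT and 28.1% and 31.4% in IkBKO. Rpl22 is known for its need in early T cell development and for holding down Rpl22l1. Neither gene passed over all cells, with 0.15 ± 0.05 for Rpl22 (adjusted p = 0.0943) and 0.01 ± 0.06 for Rpl22l1. In every cell set the lowest share was that of IkBKO replicate 1, and the other 3 pools lay within 3 percentage points. Rpl7l1 made up 3.20% ± 0.06 (SD, n = 2 pools) of its pair with Rpl7 in WT and 3.24% ± 0.22 in IkBKO, and Rps27rt 0.824% ± 0.289 and 0.810% ± 0.267 of its pair with Rps27. Counting of Rps27rt is uncertain where its reads also match Rps27.

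**Figure D5:**
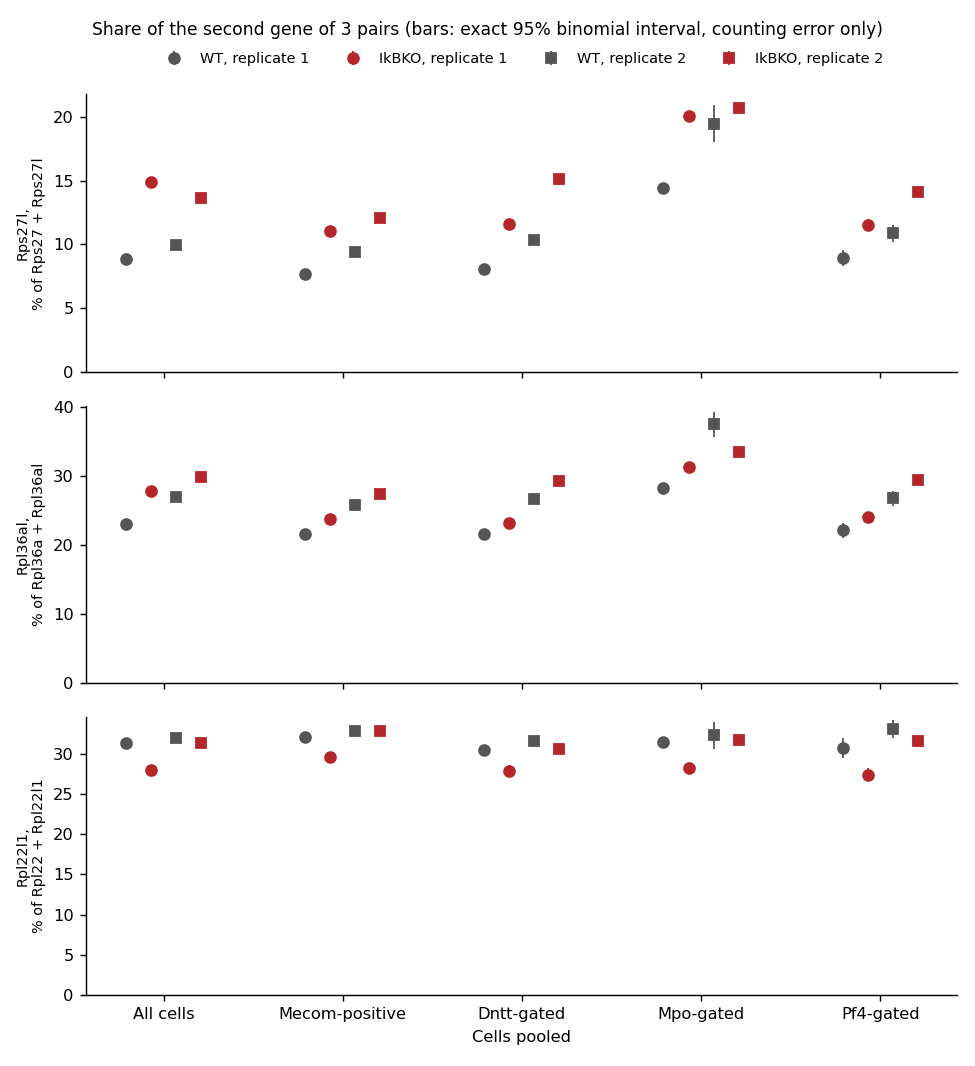
Share (percent of UMIs, axis from 0) of Rps27l, Rpl36al and Rpl22l1 in their pairs in each of the 4 pools, for all cells and the 4 gates, with exact 95% binomial intervals for counting error; circles are replicate 1, squares replicate 2, grey WT and red IkBKO. For Rps27l both IkBKO pools lie above both WT pools in every cell set, and all 4 pools are highest in Mpo-gated cells.

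Fau and Rack1, ribosomal proteins outside the symbol rule, showed no called genotype difference over all cells. Fau, made as a fusion with a ubiquitin-like protein, was at 5129 and 5048 CPM in replicate 1 and 5251 and 5103 in replicate 2, with a log2 fold change of 0.06 ± 0.04. Both were higher in Dntt-gated and in Mpo-gated than in Mecom-positive cells.

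Genes that build ribosomes or use them were followed as lists, and over all cells 7.13% of all genes rose and 6.19% fell. Of 36 genes of ribosomal RNA synthesis and ribosome assembly, 2 rose in IkBKO and none fell over all cells (median 0.15). They were Npm1, a nucleolar chaperone, at 1932 and 2296 CPM in replicate 1 and 2067 and 2552 in replicate 2 (0.37 ± 0.05), and Nhp2, of the pseudouridine-forming snoRNPs (0.45 ± 0.10). Of 35 translation factors, 2 rose, Eif5a (0.48 ± 0.08) and Btf3 (0.30 ± 0.07), and 1 fell, Eif4a2 (-0.37 ± 0.08). In Mpo-gated over Mecom-positive cells, where 29.4% of all genes were higher and 36.2% lower, 31 of the 36 assembly genes were higher and none lower, with a median of 0.56, and of the translation factors 30 were higher and 1 lower, with a median of 0.33. Both medians were above the 0.24 of the ribosomal protein genes.

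Of 20 genes of mTORC1 and Myc control, which set ribosome production, 2 fell over all cells: Mycn (-0.79 ± 0.10), expressed in stem cells, and Mxd4, a Myc antagonist (-0.45 ± 0.08). Mycn was also lower in Mpo-gated than in Mecom-positive cells, at -4.91 ± 0.30. Of 17 tested genes of the p53 response, the pathway to which Rps27l belongs, 1 rose and 1 fell over all cells, where 7.13% and 6.19% of all genes did. Pmaip1, which promotes cell death, rose by 2.53 ± 0.46, and Btg2, which slows proliferation, fell (-1.19 ± 0.08). In Mecom-positive cells 2 of 17 rose, among them Cdkn1a, an inhibitor of the cell cycle (1.03 ± 0.17), and 3 fell. There 6.2% of all genes rose and 4.37% fell, and the median of the list was 0.005. In Dntt-gated cells 1 of 16 rose and 3 fell, where 6.81% and 5.95% of all genes did.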

How the data were processed

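Chromium 3′ v3.1 libraries of 2 replicates were used. The deposited matrices hold UMI counts per gene and barcode, not normalized, written by Cell Ranger 6.0.0 per the file headers; the submitters' processing notes name Cell Ranger 7.0, Seurat 4.3.0 and mm10. A deposited table gives the quality call and genotype of each barcode, by rules not given in the sources used here. The 7683 of 9322 and 10346 of 24787 passing barcodes were used without a further filter, and doublets were not called again.

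Counts were summed per replicate and genotype and tested with edgeR 4.0.16 in R 4.3.3 (robust quasi-likelihood F test, two-sided, TMM, filterByExpr, replicate as a block), adjusted by Benjamini-Hochberg over all genes tested. The replicate number marks a shared droplet library per the labels' protocols, and deviations from genotype means of same-numbered pools correlated at 0.704 over 12261 genes. A genotype fit has 1 residual degree of freedom per gene, with the spread shared across genes. Gates were compared in 1 fit over 16 pools of cells in exactly 1 gate, with the pool as a block and a joint F test of the gate-by-genotype terms. Alternatives were DESeq2 1.42.0, other scalings and filters, no block, cells thinned to 3000 UMIs, stricter gates, and leaving out each pool. Steps were tested on simulated counts.

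Coordinates and coding lengths come from GENCODE M21 (GRCm38). UMIs count 3′ ends, so levels were not divided by length. Coding length, rather than transcript length, was chosen after the data were seen, and transcript length gave a weaker relation (r = 0.34 and 0.32). Named genes are the called members and the extremes over all cells and per gate and contrast, paralogue pairs, the most and least abundant members, up to 3 genes per other list, and IκB genes; Rps19, Rplp0's levels, Rpl3l, Rpl39l and Rpl10l were added. Some single-gene results are not reported here, though counts and medians include every gene. The members and lists were chosen with earlier results of these data known.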

Additional observations from a re-analysis of the deposited data

How the results depend on the processing

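Genotype fits have 2 pools a side. In the main fits the smallest gate pool held 40 cells between genotypes and 30 in the gate contrasts, which use cells in exactly 1 gate. With each pool left out in turn, a genotype fit has no residual degree of freedom with the library block, so it was made without it, the lone pool of a genotype being assumed to vary like the others. It then compares libraries as well as genotypes, and the effect of the lost pool cannot be told apart from that of the lost block. Members called higher and lower were 0 to 0 over all cells and in Mecom-positive, Dntt-gated, Mpo-gated and Pf4-gated cells. For gate contrasts, which keep the block, the counts higher were 73 to 80 (Dntt), 67 to 72 (Mpo) and 30 to 48 (Pf4, 30 without IkBKO replicate 1), and lower 0 to 0, 1 to 5 (1 without WT replicate 1) and 0 to 1 (0 without WT replicate 1).

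Without the replicate block (no pairing of pools by library) the genotype counts were 0 higher and 0 lower in all cell sets, and the gate contrasts gave 39 and 0 (Dntt), 48 and 1 (Mpo) and 6 and 0 (Pf4). Higher and lower counts over all cells (16 and 1) were 9 and 5 by library totals, 8 and 0 by DESeq2, 12 and 0 without a filter on low counts, 17 and 5 thinned, 17 and 2 without cells carrying mature or other-lineage markers, and 10 and 1 in cells of no gate. In Mecom-positive cells (20 and 2) they were 11 and 5, 4 and 1, 23 and 4, and 10 and 8 in the same order up to thinning, 22 and 1 with the stricter gate and 8 and 1 for cells in exactly 1 gate. In Dntt-gated cells (1 and 0) they were 1 and 1 by library totals and 2 and 0 thinned, in Mpo-gated cells (0 and 0) 1 and 0 without the filter. In Pf4-gated cells (1 and 1) they were 3 and 1 by library totals, 0 and 0 by DESeq2, 4 and 0 without the filter, 2 and 0 thinned, 2 and 1 with TMM factors from other genes, 2 and 1 with the stricter gate and 4 and 1 for cells in exactly 1 gate. The share of all genes called under these alternatives is not given, and the causes were not tested.

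For gate contrasts, library totals gave 42 and 1 (Dntt), 24 and 33 (Mpo) and 21 and 7 (Pf4), thinned cells 56 and 0, 46 and 6, and 15 and 0, gates set on thinned cells 48 and 0, 42 and 6, and 6 and 0, and Pf4 without the filter 30 and 1. The share of all genes called under these alternatives, or with a pool left out, is not given. No member's genotype difference differed between gates under any alternative run.

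With a pool left out, and so without the block, log2 fold changes over all cells ran from -0.0665 to 0.68 (Rpl41; -0.0021 without WT replicate 2), -0.0824 to 0.59 (Rpl36), -0.0035 to 0.39 (Rpl14) and -0.0387 to 0.43 (Rps26; -0.0192 without WT replicate 2), each lowest without IkBKO replicate 1. Those of Rpl36 ran from -0.0776 to 0.55 in Mecom-positive cells (-0.0131 without WT replicate 2) and from -0.0998 to 0.63 in Pf4-gated cells (-0.0489 without WT replicate 2). With gates set on thinned cells Rpl7l1 had -0.0427 in the Pf4 contrast, against 0.32. The mean share of ribosomal protein genes in IkBKO was 36.6% of non-mitochondrial UMIs, by construction above the 35.6% of all. The mean Rps27l share in IkBKO was 14.3%, 12.3% as a mean over cells and 11.3% thinned; in WT it was 9.41%, and 8.30% thinned. The Rpl36al share in IkBKO was 28.8%, and 27.05% thinned, and the Rpl22l1 share in WT was 31.6%, 30.7% as a mean over cells and 31.0% thinned.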
